A study of Mus musculus with 30 samples.

Results

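Tnnt3, Tnni2, Tnnc2, Mylpf, Myl1, Atp2a1, Actn3, Pvalb, Casq1 and Mybpc2 are 10 genes for the contractile and calcium-handling proteins of fast-twitch muscle fibers. They were taken by symbol from the deposited gene tables, which hold 56951 gene symbols on 57186 rows. Each of the 10 symbols stood on 1 row, and all 10 passed the filter on low values that left 12030 genes for testing. The rule that chose them uses their symbols and not their values, though it was set with earlier results of these data known. What follows asks how abundant they were, how far they differed between mice, and whether either changed under a repeatedly shifted light schedule.

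A fast fiber contracts when calcium leaves the sarcoplasmic reticulum, binds troponin on the thin filament and lets myosin heads reach actin. Fast and slow fibers build much of this machinery from different members of the same gene families. Many fast isoforms thus have a counterpart used in slow fibers and encoded elsewhere in the genome. The gastrocnemius of the mouse is mostly fast, and its fast fibers hold large amounts of the calcium pump, the calcium buffer and the calcium-storing protein that end a twitch quickly.

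The muscle came from wild-type male C57BL/6J mice, each housed alone with a running wheel, and 1 library of poly(A)-enriched RNA was made per mouse. All mice first had 2 weeks of a regular light-dark cycle with light from 8:00 to 20:00 and then 2 weeks of constant darkness. For the next 64 weeks the 14 LD mice stayed on the regular cycle, while the cycle of the 16 ADV mice was moved 8 hours earlier every 4 days. The gastrocnemius was collected together with the plantaris as whole tissue, so that fewer fast fibers and less fast-fiber RNA per fiber cannot be told apart, and the time of day at which each mouse was sampled is not given in its label.

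The 10 genes lie on 5 autosomes, and 5 of them are on chromosome 7. In the GRCm39 build used by the tables, Tnni2 (chr7:141995545-141998147) and Tnnt3 (chr7:142055375-142069567) lie close together on the + strand. Mylpf (chr7:126810780-126813470, + strand) and Atp2a1 (chr7:126045030-126062280, - strand) lie further toward the centromere, and Mybpc2 is at chr7:44151123-44174080 on the - strand. Casq1 (chr1:172037461-172047435) and Myl1 (chr1:66963457-66974513) share chromosome 1, Tnnc2 is at chr2:164619081-164621661, Pvalb at chr15:78075317-78090600 and Actn3 at chr19:4911244-4927937, all on the - strand. Values were counted over the exons of these transcripts. For each member the exon length in the tables was shorter than in the gene annotation. It was 3432 beside 4141 bases for Atp2a1 and 689 beside 752 for Tnnc2, for example, and the reason was not examined. The overlaps given below are shares of the annotated bases. Of the transcripts, 6 are short, with 689 to 944 exon bases in the tables (Tnnt3, Tnni2, Tnnc2, Mylpf, Myl1 and Pvalb), and the other 4 have 1826 to 3556 (Casq1, Actn3, Atp2a1 and Mybpc2). Exons of 6 members overlap exons of a gene on the opposite strand, over 78.7% of the exon bases for Tnnc2 with Ube2c, 36.1% for Actn3 with Ctsf, 33.6% for Mylpf with Septin1, 18.4% for Atp2a1 with Rabep2, 7.21% for Casq1 with Gm17224 and 5.21% for Mybpc2 with Gm44646. The library kit keeps the strand, but whether counting used it is not given in the sources used here, so the reads of these pairs may not be fully separated.

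The DNA just upstream of the start sites is shown for 4 of the members with different roles. Whether it has a part in how the members varied between mice was not tested. The sequences are from RefSeq (GRCm38.p6), cover the 200 bases before the annotated start, and each matched GRCm39 exactly and once, at the coordinates given. Capitals mark an E-box (CANNTG, the short site bound by MyoD-family and clock basic helix-loop-helix factors) in Mylpf, Atp2a1 and Casq1, and a match to the MEF2 consensus in Pvalb.
Mylpf, chr7:126810580-126810779, + strand: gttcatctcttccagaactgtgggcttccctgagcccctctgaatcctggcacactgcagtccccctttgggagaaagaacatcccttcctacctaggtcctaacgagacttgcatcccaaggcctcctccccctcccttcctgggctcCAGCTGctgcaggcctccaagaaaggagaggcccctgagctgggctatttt
Atp2a1, chr7:126062246-126062445, - strand: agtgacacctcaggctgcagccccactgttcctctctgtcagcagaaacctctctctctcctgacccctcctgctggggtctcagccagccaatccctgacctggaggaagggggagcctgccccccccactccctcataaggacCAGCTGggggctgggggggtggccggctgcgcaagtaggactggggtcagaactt
Casq1, chr1:172047463-172047662, - strand: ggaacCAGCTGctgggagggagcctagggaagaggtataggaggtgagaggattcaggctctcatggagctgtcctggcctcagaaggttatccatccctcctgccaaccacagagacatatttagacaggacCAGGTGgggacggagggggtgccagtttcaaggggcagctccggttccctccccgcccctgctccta
Pvalb, chr15:78090601-78090800, - strand: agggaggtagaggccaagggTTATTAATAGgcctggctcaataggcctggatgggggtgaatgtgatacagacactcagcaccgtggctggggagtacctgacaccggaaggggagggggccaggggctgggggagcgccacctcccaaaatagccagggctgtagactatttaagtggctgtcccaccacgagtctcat
RefSeq promoter entries were found for 7 members, on 8 rows (Actn3, Tnni2 and Tnnt3 had none). The start of the first 3 sequences printed lies 0, 35 and 27 bases from the start of the deposited Mylpf, Atp2a1 and Casq1 transcripts, and that of Pvalb lies 0 bases from it. An E-box was found within 250 bases before and 50 after the start in 7 of the 8 rows, beside 72.3% of all 32851 promoters of that length. For Pvalb it was found only in the row not printed, whose start lies 2163 bases from that of the deposited transcript. The Myl1 row starts 9702 bases from the deposited Myl1 transcript, so its matches are not at the start of the counted transcript. The E-box began at base -51 of Mylpf, at base -55 of Atp2a1 and at bases -195 and -67 of Casq1, with CAGCTG as the letters in the first 2 genes. The clock-type E-box CACGTG, a subset of CANNTG, was found in 0 of the 8 rows and in 7.15% of all promoters. The MEF2 consensus was found once, in Pvalb at base -180, beside 3.19% of all promoters, TATAAA once, in Myl1, beside 13.6%, and the MEF3 letters TCAGGTT in 0 rows, beside 4.07%. Both strands were searched, and a match is a run of letters and not a measured binding site.

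The libraries held 18875468.5 to 28512674 reads counted on exons, each mate counting as 0.5 read, and every member was measured with a mean of 51085 reads (Casq1) or more, so that counting error was small beside the spread between mice. Reads of the 10 members made up 8.89 to 12.0% of all exon reads in LD (median 9.72%) and 8.08 to 11.7% in ADV (median 9.66%). Libraries that stood apart were LD mouse 23, the highest of its group for 7 members, ADV mouse 24, the lowest of its group for 8, and ADV mouse 34, the highest of its group for 7. ADV mouse 34 also had more RNA from short genes and less from long ones than any other library. Its median deviation from the group was 0.31 (log2 CPM) over 1086 tested genes under 1000 exon bases and -0.40 over 2067 tested genes over 5000 exon bases, a gap of 0.70. The gap was 0.30 in ADV mouse 25 and 0.10 in ADV mouse 27, and between -0.08 and 0.06 in the other 27 libraries. Clock genes differed between the groups, with Bmal1 higher and Dbp lower in ADV, and the part that sampling phase or RNA length had in the members' values was not tested beyond the alternatives given at the end.

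The 3 fast troponin genes were the most abundant set. Tnnt3 encodes fast troponin T, the subunit that ties the troponin complex to tropomyosin. Its level was 17064.5, 19400.8 and 23595 FPKM in LD (lowest, median, highest; FPKM are read pairs scaled by exon length and library total) and 16327.6, 19076.7 and 25430.8 FPKM in ADV, which made it the gene with the second highest mean among all genes tested. Tnnc2, the calcium-binding subunit, had 9011.06, 10158.9 and 11755.5 FPKM in LD and 8617.6, 10262.7 and 14378.9 FPKM in ADV. Tnni2, the inhibitory subunit, had 8463.43, 9580.65 and 10350.5 FPKM in LD and 8301.79, 9655.88 and 13434.2 FPKM in ADV. In all 3 genes the groups overlapped (13, 13 and 11 of 16 ADV mice lay within the LD range), with ADV mouse 24 the lowest and ADV mouse 34 the highest of all 30 mice.

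The fast myosin light chains came next. Mylpf encodes the regulatory light chain of fast myosin, and its FPKM was 6194.05, 7733.05 and 8917.93 in LD and 6659.04, 7474.72 and 10831.5 in ADV. Myl1, whose transcripts encode the essential light chains, had 6488.77, 7715.76 and 8941.83 FPKM in LD and 5786.67, 7254.94 and 9658.94 FPKM in ADV. For both, 14 of the 16 ADV mice lay within the range of the LD mice. Myl1 was below the LD median in 13 of 16 ADV mice and Mylpf in 11.

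Actn3, the alpha-actinin that anchors thin filaments at the Z-disc of fast fibers, and Mybpc2, the fast myosin-binding protein C of the thick filament, were less abundant, with CVs of FPKM of 18.8% and 18.5% in LD (5.91 to 13.9% in the other members) and 13.9% and 12.6% in ADV (9.65 to 15.1% in the others). Actn3 had 2130.47, 2758.93 and 3835.12 FPKM in LD and 1814.69, 2670.08 and 3320.27 FPKM in ADV. Mybpc2 had 1677.65, 2029.2 and 2921.76 FPKM in LD and 1303.55, 2027.67 and 2197.85 FPKM in ADV. The medians of Mybpc2 were nearly equal, while the upper end of the range was lower in ADV and its lowest value, in ADV mouse 24, was below every LD mouse.

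The calcium-handling members spanned a wide range of levels. Atp2a1, the SERCA1 pump that returns calcium to the sarcoplasmic reticulum, had 6883.85, 8097.15 and 10013.9 FPKM in LD and 6279.18, 8009.21 and 9553.77 FPKM in ADV. Pvalb, the cytosolic calcium buffer parvalbumin, had 5007.37, 6282.9 and 7839.77 FPKM in LD and 4519.41, 5814.58 and 8470.44 FPKM in ADV. Casq1, the calcium-binding protein that stores calcium inside the reticulum, had 965.773, 1183.03 and 1504.23 FPKM in LD and 881.043, 1071.5 and 1403.74 FPKM in ADV. Casq1 was below the LD median in 12 of 16 ADV mice and Pvalb in 11, and in both genes most ADV mice lay inside the LD range (13 and 14 of 16).

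**Figure D1:**
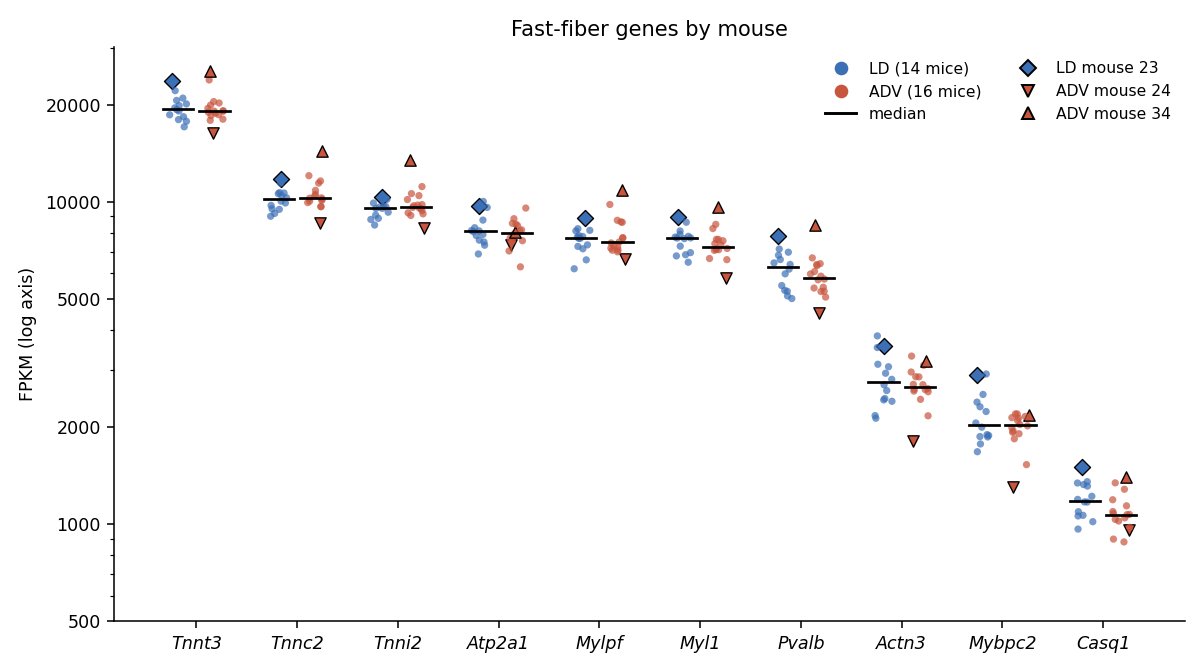
FPKM of the 10 fast-fiber genes in each mouse on a log axis, ordered by the LD median, with LD in blue, ADV in red and medians as black bars. The groups overlap in every gene, and LD mouse 23, ADV mouse 24 and ADV mouse 34 sit at the edges of most.

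Per exon length, the order of the members was the same in both groups by median FPKM: Tnnt3, Tnnc2, Tnni2, Atp2a1, Mylpf, Myl1, Pvalb, Actn3, Mybpc2, Casq1. The largest step was from Pvalb to Actn3, whose medians differed 2.28-fold in LD and 2.18-fold in ADV, and Tnnt3 exceeded Tnnc2 1.91-fold and 1.86-fold. Of the 9 neighbouring pairs, 6 kept this order in each of the 30 mice. The order was not fixed for Mylpf over Myl1, which held in 9 of 14 LD and 13 of 16 ADV mice, for Atp2a1 over Mylpf (12 of 14 and 10 of 16), or for Tnni2 over Atp2a1 (13 of 14 and 16 of 16). All 10 were among the 39 tested genes with a mean over 1000 FPKM, from rank 2 (Tnnt3) to rank 37 (Casq1).

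No member passed the threshold for a difference between LD and ADV. By edgeR's quasi-likelihood test, 0 of the 10 were called higher and 0 lower in ADV at an FDR under 0.05 over all genes tested, where 5.61% of the tested genes were called higher and 5.2% lower. With a fold change over 1.3 added, 2.09% of the tested genes were called in either direction. An unadjusted p under 0.05 was found for 1 member, Casq1, by edgeR. DESeq2, limma on log2(FPKM + 1) and the rank-sum test of FPKM also called 0 members, and 9.68% of the tested genes were called by the rank-sum test.

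Casq1 had the largest point estimate, a log2 fold change (ADV minus LD) of -0.15 ± 0.07 (SE; unadjusted p = 0.041, edgeR FDR = 0.148), or -9.87% with a 95% confidence interval of -18.4 to -0.449%. Mybpc2 followed at -0.15 ± 0.09 (edgeR FDR = 0.261), with an interval of -20.5 to 2.31%. The values for the other members were closer to 0: -0.09 for Actn3, -0.08 for Pvalb, -0.07 for Atp2a1, -0.05 for Myl1, -0.02 for Tnnt3, 0.04 for Mylpf, 0.04 for Tnnc2 and 0.05 for Tnni2. Point estimates were lower in ADV for 7 members and higher for 3, with a median log2 fold change of -0.06, beside 0.00 over all tested genes. For Tnnt3 the interval ran from -9.52 to 8.05%, for Tnni2 from -4.55 to 11.7%, for Tnnc2 from -5.29 to 12.3% and for Mylpf from -6.58 to 12.5%. For Atp2a1 it ran from -13.6 to 4.90%, for Pvalb from -15.3 to 5.80% and for Actn3 from -17.7 to 7.42%, so that each interval stayed within -20.5 and 12.5%. After a correction for GC content, Tnni2, Tnnc2 and Mylpf turned to -0.02, -0.02 and -0.00, and Atp2a1 and Actn3 moved to -0.14 and -0.17, so the split between higher and lower members depended on that setting. Under it 3 members had an unadjusted p under 0.05 (Casq1 0.00793, Mybpc2 0.0231 and Atp2a1 0.0461), and 0 were called (edgeR FDR from 0.0869). Without ADV mouse 34, Tnni2 stood at 0.01, Tnnc2 at 0.01 and Mylpf at -0.00, and Tnnt3 at -0.05 and Pvalb at -0.12. Without LD mouse 23, ADV mouse 24 and ADV mouse 34 together, Tnni2 stood at 0.04, Tnnc2 at 0.04 and Mylpf at 0.03. The 3 higher values thus depended on which of these mice were left out.

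**Figure D2:**
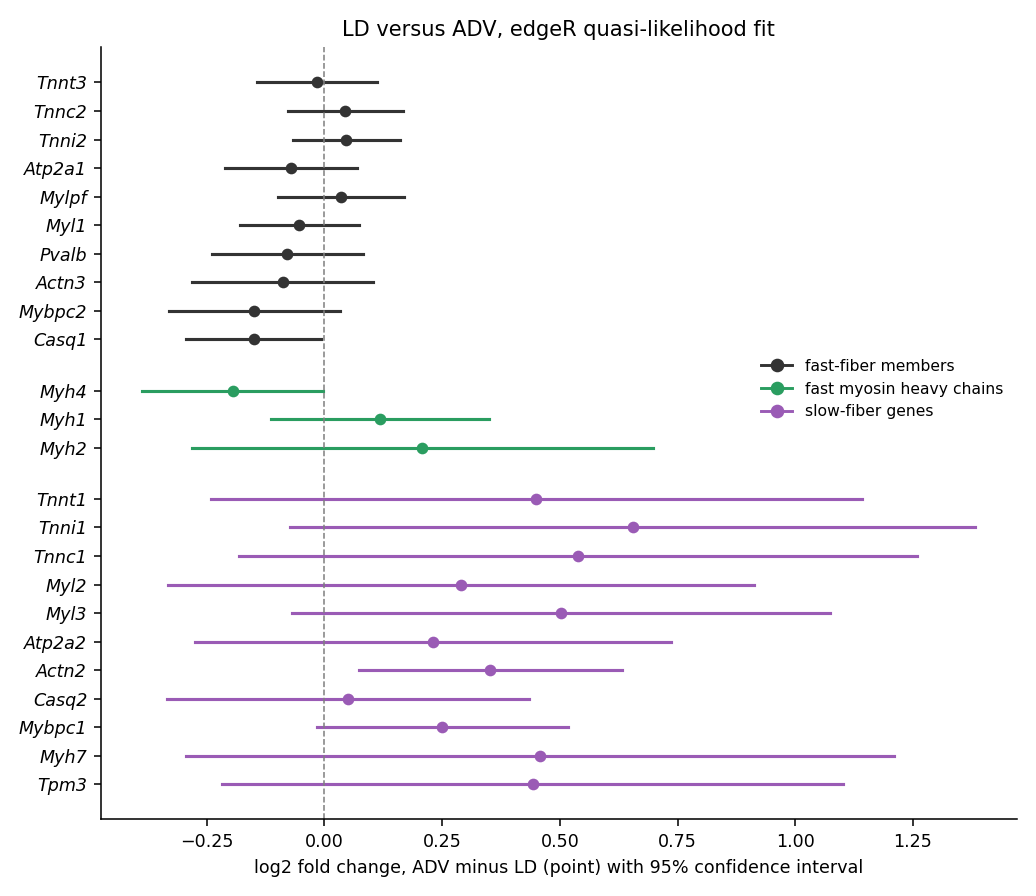
Log2 fold change (ADV minus LD) with its 95% confidence interval from the edgeR fit, for the 10 fast-fiber genes (black), 3 fast myosin heavy chains (green) and 11 slow-fiber genes (purple). The fast-fiber points lie between -0.15 and 0.05 with short intervals, and the slow-fiber points lie between 0.05 and 0.65 with long ones.

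The spread between mice did not pass a test of difference between the groups for any member. It is given as the SD of the log2 of CPM, the counts scaled to library size with TMM factors. Tnni2 had the smallest in LD, 0.10, beside 0.17 in ADV. Tnnc2 had 0.12 and 0.18, Tnnt3 0.14 and 0.18, Myl1 0.14 and 0.18, and Mylpf 0.14 and 0.20. Actn3 (0.29 and 0.25) and Mybpc2 (0.27 and 0.23) varied most, with a larger SD in LD. In ADV this depended on mouse 24, without which the SD fell to 0.19 for Actn3 and 0.15 for Mybpc2, beside 0.19 for Casq1 and 0.19 for Pvalb. The remaining members, Atp2a1 (0.18 and 0.17), Casq1 (0.19 and 0.20) and Pvalb (0.21 and 0.22), were nearly equal in the groups.

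The median SD of the members was 0.16 in LD and 0.19 in ADV, beside 0.18 and 0.20 over all tested genes and 0.18 and 0.19 over the 39 tested genes with a mean over 1000 FPKM. A limma test of the absolute deviations from the group median, fitted on all tested genes, called 0 of the 10 members, with 0 at an unadjusted p under 0.05 and an FDR of 0.851 or more for each, where 0.00831% of the tested genes (1 gene) were called. By the absolute deviations of that test, 60.9% of all tested genes had a larger spread in ADV. Among the members these were Tnni2, Tnnc2, Mylpf and Myl1, and by differences near 0 Tnnt3 (0.000287) and Atp2a1 (0.000777). By another measure, the SD, the spread was larger in ADV for 7 members, and for 5 without ADV mouse 34. Removing that mouse lowered the SD of Tnni2 in ADV from 0.17 to 0.12 and that of Mylpf from 0.20 to 0.15. Without LD mouse 23, ADV mouse 24 and ADV mouse 34 the SD was larger in ADV for 1 member, and again 0 members were called.

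**Figure D3:**
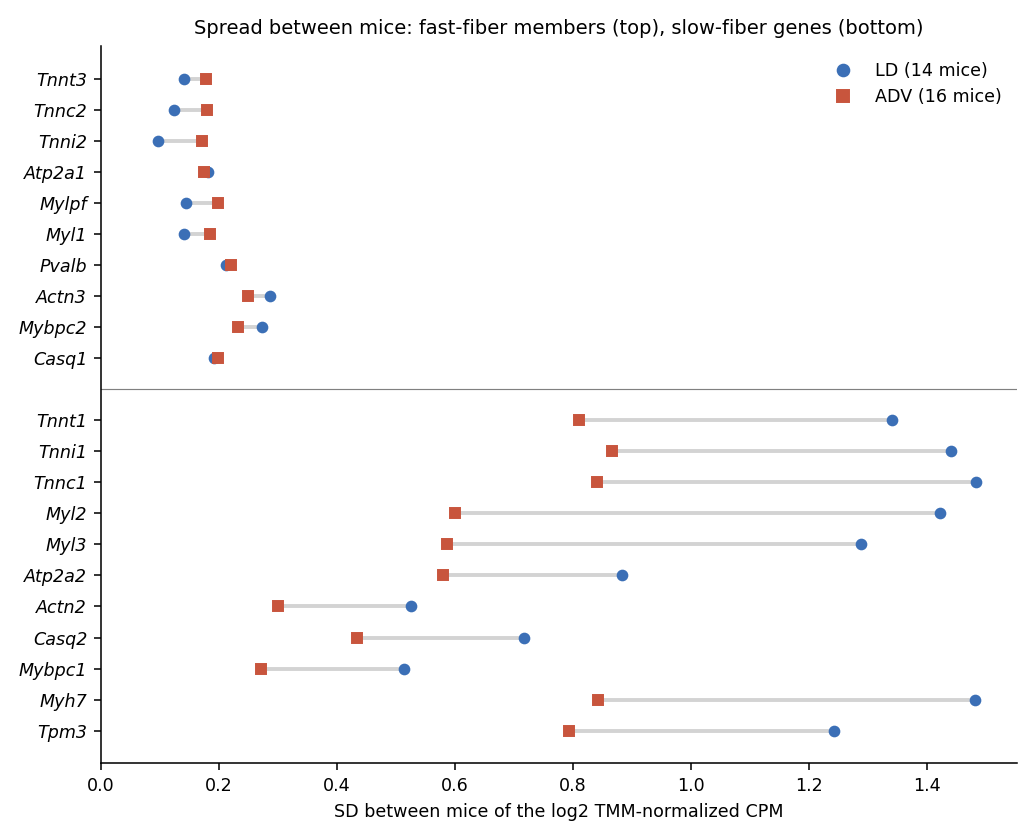
SD between mice of the log2 TMM-normalized CPM in LD (circles) and ADV (squares), for the 10 fast-fiber genes (top) and 11 slow-fiber genes (bottom). The fast-fiber values lie between 0.10 and 0.29, and the slow-fiber values between 0.27 and 1.48.

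The members rose and fell together from mouse to mouse. All 45 pairs of members had a positive correlation of log2 CPM within LD (14 mice) and within ADV (16 mice), with a median Pearson's r of 0.84 in LD (0.53 to 0.97) and 0.80 in ADV (0.30 to 0.99). By permutation of the mice, 44 pairs in LD and 39 in ADV had an adjusted p under 0.05 over the 45 pairs. Pairs of other genes were not examined in this way, so whether such co-variation is particular to the members was not tested. Genes outside the set, such as Tpm1 (rho = 0.95) and Ckm (0.91), also followed it closely, as given below. The libraries share a normalization in which the members themselves weigh, and with these genes left out of the TMM factors the medians were 0.84 and 0.80. Without LD mouse 23 the median in LD was 0.82, and without ADV mice 24 and 34 the median in ADV was 0.65, with all 45 pairs still above 0.

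The 2 pairs with the highest and the 2 with the lowest r in each group are given here. Where r is given without 2 mice, they are those farthest from the median of the gene named first. Leaving out mice by the other gene was not tried. In LD, Tnnt3 and Tnnc2 had r = 0.97 and Spearman's rho = 0.96 (permutation test, adjusted p = 4.5e-05 and 5.62e-05; r = 0.95 without the 2 mice farthest from the median), and Actn3 and Mybpc2 had r = 0.96 and rho = 0.91 (adjusted p = 4.5e-05 and 0.00012; r = 0.94 without the 2 mice). In ADV, Tnni2 and Tnnc2 had r = 0.99 and rho = 0.94 (adjusted p = 8.18e-05 and 0.000337; r = 0.97 without 2 mice), and Tnnt3 and Tnnc2 had r = 0.95 and rho = 0.75 (adjusted p = 8.18e-05 and 0.00354; r = 0.88). By rho the order differed, and in ADV Pvalb and Casq1 (0.90) came next after Tnni2 and Tnnc2. The 2 pairs of lowest r in each group held Atp2a1. Tnni2 and Atp2a1 had r = 0.53 and rho = 0.46 in LD (adjusted p = 0.0523 and 0.098; r = 0.46 without 2 mice), and Myl1 and Atp2a1 had r = 0.61 and rho = 0.67 (adjusted p = 0.022 and 0.0118; r = 0.48). In ADV, Mylpf and Atp2a1 had r = 0.30 and rho = 0.26 (adjusted p = 0.257 and 0.321; r = 0.50) and Myl1 and Atp2a1 r = 0.40 and rho = 0.42 (adjusted p = 0.125 and 0.122; r = 0.36).

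Single mice showed how far the genes moved as a set. All 10 members were above the group median in LD mice 23, 26, 30, 33 and 35 and below it in LD mice 21, 29, 32 and 36. In ADV all 10 were above it in mice 25 and 34 and below it in mice 24, 26 and 31. ADV mouse 24 had the largest fall, with Mybpc2 at -0.70 and Actn3 at -0.63 (log2 CPM minus the group median) against -0.19 for Atp2a1. In ADV mouse 34 the 6 short members were raised by a median of 0.50 and the 4 long ones by 0.23, the direction of the gap between short and long genes in that library. ADV mouse 25, with the next largest gap, had medians of 0.27 for the short and 0.33 for the long members. In LD mouse 33 the pattern was the opposite, with medians of 0.14 for the short and 0.46 for the long members, while its gap over all short and long genes was -0.01.

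**Figure D4:**
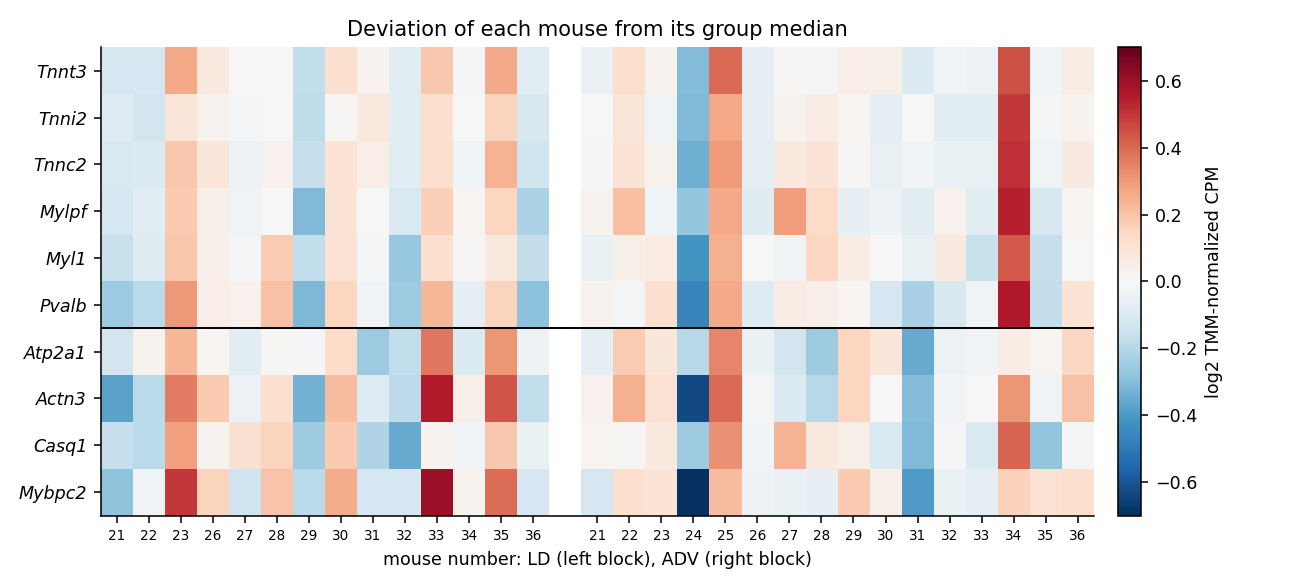
Log2 TMM-normalized CPM of each fast-fiber gene in each mouse minus the median of its group, with the 6 short transcripts above the line and the 4 long ones below it. Columns of a single color show mice in which the genes moved together, such as ADV mouse 24 (all below) and ADV mouse 34 (all above).

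Each of 9 members has a counterpart in slow fibers, and every counterpart was lower by median FPKM and had a larger SD of log2 CPM than its fast partner in both groups, by wide margins for most pairs and narrow ones for Actn3 and Mybpc2 in ADV (SD 0.25 beside 0.30 for Actn2, and 0.23 beside 0.27 for Mybpc1). Tnnt1, slow troponin T, had 7.28, 78.7 and 154 FPKM in LD (lowest, median, highest) and 27.3, 91.1 and 360 FPKM in ADV, so that Tnnt3 exceeded it by a median of 251-fold in LD (115 to 3242) and 219-fold in ADV (45.4 to 749). Mybpc2 exceeded Mybpc1, the slow myosin-binding protein C, by a median of 4.34-fold in LD and 4.30-fold in ADV, and Actn3 exceeded Actn2, the alpha-actinin that all muscle fibers use, by 7.27-fold and 5.93-fold, with 13 of 16 ADV mice below the LD median ratio. The median ratio of Tnni2 to Tnni1 was 339-fold in LD and 236-fold in ADV, that of Tnnc2 to Tnnc1 194-fold and 146-fold, and that of Mylpf to Myl2 48.8-fold and 37.4-fold. Those of Myl1 to Myl3 were 39.4-fold and 32.3-fold, of Casq1 to Casq2 82.1-fold and 71.6-fold, and of Atp2a1 to Atp2a2, the pump of slow fibers, 151-fold and 150-fold. The median was lower in ADV for all 9 pairs, by less than the SD between LD mice for each, and no test was made on the ratios. In ADV the ratio of every one of the 9 pairs was lowest in mouse 24.

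The 9 counterparts with Myh7, the slow myosin heavy chain, and Tpm3, the slow tropomyosin, made 11 slow-fiber genes. All 11 point estimates were higher in ADV, from 0.05 (Casq2) to 0.65 (Tnni1) on the log2 scale with a median of 0.44, and 0 of 11 were called by edgeR (1 had an unadjusted p under 0.05). The lowest FDR was that of Actn2, 0.35 ± 0.14 (SE; edgeR FDR = 0.0857). Their SD of log2 CPM was 0.51 to 1.48 in LD and 0.27 to 0.87 in ADV, larger in LD for each. Without LD mouse 23 the LD range was 0.32 to 1.24, and the SD fell from 0.51 to 0.32 for Mybpc1, from 0.52 to 0.34 for Actn2 and from 1.29 to 0.83 for Myl3. With all mice, 0 of 11 were called in the test of spread (lowest unadjusted p = 0.0454, lowest FDR = 0.801). Among the fast myosin heavy chains, Myh4, the heavy chain of type IIb fibers, had 11407.9 ± 2061.7 FPKM in LD (SD, n = 14) and 10089.1 ± 1501.2 FPKM in ADV (SD, n = 16), a log2 fold change of -0.19 ± 0.09 (SE; edgeR FDR = 0.160). The type IIx gene Myh1 stood at 0.12 and the type IIa gene Myh2 at 0.21 (edgeR FDR = 0.505 and 0.590), so none of the 3 was called.

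Within LD, every member tended to be lower in mice with a higher sum of the 11 slow-fiber genes, although Actn2 and Mybpc1, which are not confined to slow fibers, made up 42.7 to 80.5% of that sum. Against the summed FPKM of the 11 slow-fiber genes on the log2 scale (350 to 2112 FPKM in LD), the log2 CPM of the 10 members had r from -0.87 (Pvalb) to -0.67 (Tnni2) and rho from -0.86 to -0.59, with permutation p adjusted over the 10 members from 1e-04 to 0.00736 for r and 0.0013 to 0.0304 for rho. The lower of these for r rests on the smallest p that 100000 permutations can give. Without LD mice 23 and 33, the 2 farthest from the median of the sum, r was -0.88 to -0.54. In ADV the sum was 1067 to 3866 FPKM, all 10 values of r were below 0 (-0.67 for Mybpc2 to -0.20 for Casq1; rho -0.49 to -0.05) and none passed the permutation test after adjustment (adjusted p from 0.0965 to 0.463 for r and 0.350 to 0.856 for rho). Without ADV mice 24 and 23 r was -0.27 to 0.14, with 4 of the 10 values below 0, so the relation in ADV depended on those mice. With Actn2 and Mybpc1 left out of the sum, r was -0.84 to -0.66 and rho -0.84 to -0.57 in LD (adjusted permutation p from 0.0004 to 0.00956 for r and 0.0037 to 0.0366 for rho; r from -0.82 to -0.47 without mice 23 and 33). In ADV it was -0.61 to -0.14 with rho from -0.41 to -0.03 (adjusted permutation p from 0.205 to 0.601 for r and 0.628 to 0.917 for rho; r from -0.19 to 0.28 without mice 22 and 24). Whether the relation differed between the groups was not tested, and it was looked for after the values had been seen. Both measures come from the same libraries, so a library's RNA composition enters both.

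**Figure D5:**
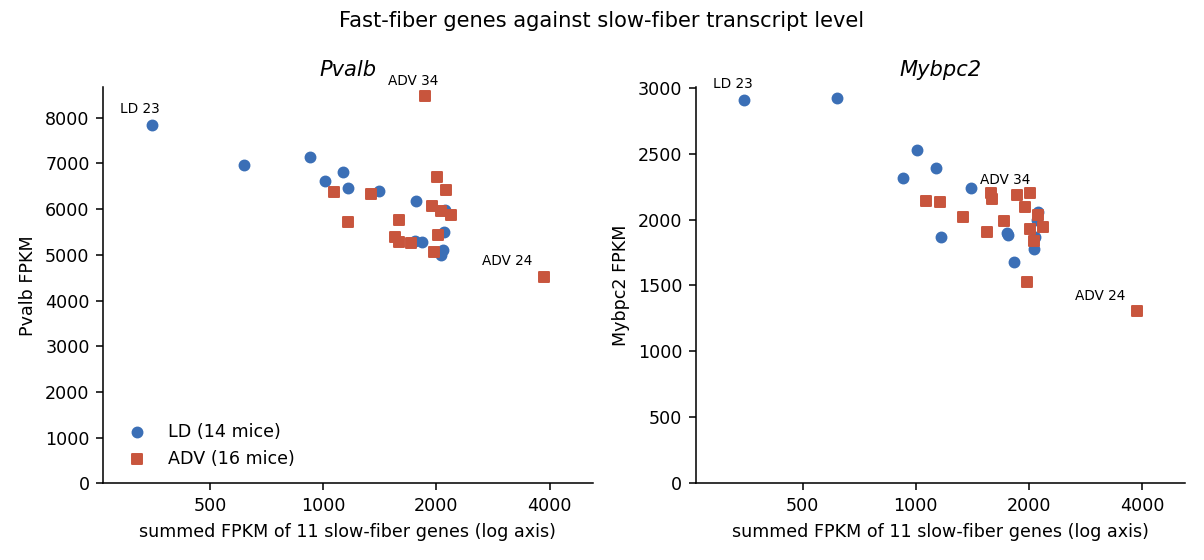
FPKM of Pvalb (left) and Mybpc2 (right) in each mouse against the summed FPKM of 11 slow-fiber genes (log axis), with LD as circles and ADV as squares. Both fall with the 11-gene sum among LD mice, while ADV mouse 34 lies above the other ADV mice for Pvalb and ADV mouse 24 lies alone at a sum of 3866 FPKM.

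Other genes of the sarcomere and of calcium handling, and of the lists that follow, are read against the 5.61% called higher and 5.2% called lower over all tested genes. Of 30 further sarcomere genes, 2 were called higher and 1 lower in ADV, 13 point estimates were higher and the median log2 fold change was -0.03. These are about the shares over all genes. Myot, myotilin of the Z-disc, rose from 499 ± 67.4 to 571 ± 42.0 FPKM (SD, n = 14 and 16), a log2 fold change of 0.18 ± 0.06 (SE; edgeR FDR = 0.0367). Klhl40, which stabilizes thin-filament proteins, rose from 59.9 ± 4.87 to 75.8 ± 12.3 FPKM (0.32 ± 0.07, edgeR FDR = 0.00384), and Trim55, a ubiquitin ligase of the sarcomere, fell from 23.1 ± 2.12 to 21.6 ± 1.38 FPKM (-0.12 ± 0.04, edgeR FDR = 0.0400). The call of Myot was lost in 9 and that of Trim55 in 15 of the 30 single-mouse omissions, and that of Klhl40 in 0.

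Of 30 further calcium genes, 0 were called higher and 2 lower, 7 point estimates were higher and the median was -0.06, beside 50.8% of point estimates higher and a median of 0.00 over all tested genes. The 2 calls are near the 5.2% called lower over all genes. Trdn, triadin, which couples calsequestrin to the calcium release channel, fell from 369 ± 21.8 to 337 ± 20.8 FPKM (log2 fold change -0.14 ± 0.04 (SE), edgeR FDR = 0.0226). Ppp3r1, the regulatory subunit of calcineurin, fell from 34.95 ± 3.26 to 30.3 ± 3.73 FPKM (-0.22 ± 0.06, edgeR FDR = 0.0196). Both calls held in the 30 fits without 1 mouse but were lost without LD mouse 23, ADV mouse 24 and ADV mouse 34 together, with log2 fold changes of -0.12 and -0.19 (FDR = 0.0551 and 0.0548). In that fit 1 gene of the 60 in these lists, Klhl40, was called, beside 5 with all mice. With a clock gene score as a covariate 0 of the 60 were called, as were 0 of all tested genes.

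Of 17 genes listed as regulators of fast-fiber genes or as partners of such factors, 2 were called higher and 1 lower. These stand beside 5.61% and 5.2% of all tested genes, and 10 of the 17 point estimates were higher. Vgll2, a cofactor of TEAD factors, rose by 1.01 ± 0.18 (log2, SE; edgeR FDR = 0.00152) from 25.1 ± 10.1 to 51.1 ± 18.4 FPKM (SD, n = 14 and 16). Like the slow-fiber gene Tnnt1, Vgll2 was lowest in LD mouse 23 and ADV mouse 22 and highest in LD mouse 22 and ADV mouse 24. Vgll2 was above the LD median in 16 of 16 ADV mice. Without LD mouse 23, ADV mouse 24 and ADV mouse 34 together its log2 fold change was 0.88 (edgeR FDR = 0.00592). Whether its rise goes with fast or slow fibers was not tested. Myod1, the myogenic factor that binds E-boxes, rose by 0.73 ± 0.19 (edgeR FDR = 0.0147) from 6.90 ± 2.22 to 11.6 ± 4.95 FPKM. Sox6, a repressor of slow-fiber genes, was lower at -0.26 ± 0.06 (edgeR FDR = 0.00778). Of 11 regulators linked to slow fibers, 10 were tested, 3 were called higher (Myog 0.74, Nfatc4 0.29 and Nfatc1 0.22, edgeR FDR = 0.00377, 0.0404 and 0.0442) and 0 lower, again beside 5.61% and 5.2%. The calls of Nfatc4 and Nfatc1 were lost in 17 and 15 of the 30 fits without 1 mouse, and those of Vgll2, Myod1, Sox6 and Myog in 0.

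Markers of other cell types were read beside the members and against the same shares of 5.61% called higher and 5.2% lower. All 8 adipocyte markers had higher point estimates in ADV, from 0.01 (Retn) and 0.04 (Cfd) to 1.57 (Lep) on the log2 scale. Of these 1 was called (Fabp4, log2 fold change 0.36), and Adipoq (0.78, edgeR FDR = 0.144) was not. Their summed level was 284 to 550 FPKM in LD and 373 to 1012 FPKM in ADV. The most abundant genes of that sum were Lpl (mean 177 FPKM in LD and 204 in ADV) and Fabp4 (172 and 225). Adipoq was highest in ADV mouse 24 (83.7 FPKM), where most members were lowest. Within LD it was highest in mouse 23 (35.1 FPKM), where most members were highest and Lpl was lowest (75.35 FPKM). All 7 tested of 8 Schwann cell markers were also higher by point estimate, with a median of 0.45, 0 called and summed levels of 27.96 to 51.4 and 29.8 to 87.9 FPKM. Of 8 endothelial markers 2 were called higher (Emcn 0.27 and Pecam1 0.16; sums 90.4 to 129 and 102 to 163 FPKM), and of 8 fibroblast and tendon markers 1 was called lower (Pdgfra -0.24; sums 297 to 365 and 256 to 431 FPKM). The call of Pecam1 was lost without LD mouse 28, LD mouse 34 or ADV mouse 24. Of 6 tested of 8 leukocyte markers 0 were called (sums 11.6 to 26.5 and 10.7 to 21.2 FPKM), and of 5 erythrocyte genes 0 (sums 70.1 to 136 and 85.3 to 146 FPKM). None of the listed markers was at 0 in every library, and their part in the members' values was not tested.

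The genes outside the set whose levels followed it most closely were chosen by Spearman's rho with the mean z-score of the 10 members over 30 mice, after the group medians had been subtracted. They were Tpm1 (rho = 0.95), the fast and cardiac alpha-tropomyosin, Phkg1 (0.92), the catalytic subunit of muscle phosphorylase kinase, Park7 (0.92), Rtn2 (0.91) and Ckm (0.91), the muscle creatine kinase. Tpm1 stood at 7544 ± 881 FPKM in LD and 7609 ± 934 FPKM in ADV (SD, n = 14 and 16) and Ckm at 7517 ± 720 and 7743 ± 738 FPKM, levels like those of the light chains. None of the 5 was called between LD and ADV by edgeR (log2 fold changes from -0.07 to 0.04). The genes that ran most opposite to the set were Lpl (rho = -0.91), lipoprotein lipase, Dach2 (-0.89), Lrpprc (-0.89), Clip4 (-0.88) and Grb14 (-0.87). These values describe 30 libraries that share a normalization, and no test was made on them.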

How the data were processed

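RNA of the gastrocnemius (with plantaris) of 14 LD and 16 ADV mice was read as 101-bp pairs. The authors trimmed with Trimmomatic, mapped to GRCm39 with STAR (2.7.10a in the submitters' processing notes), removed reads with a mapping quality under 10, and counted reads on exons of UCSC transcripts with HOMER (4.11). They deposited estimated counts, not normalized, in which each mate is 0.5 read (14.8% were not whole, and all were rounded), and FPKM values, which the authors made from the same counts, the exon length and HOMER's library total. Total exon reads were 18875468.5 to 28512674 per library. For each symbol the longest row with a mean over 20 reads was kept, and genes with a mean FPKM over 0.5 were tested.

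LD and ADV counts were tested in edgeR 4.0.16 (quasi-likelihood, TMM, Benjamini-Hochberg), spread with limma 3.58.1 on absolute deviations from the group median, and FPKM ranks by a Wilcoxon rank-sum test, two-sided and exact (100000 permutations where values tied). Correlations used 100000 permutations of mice. DESeq2 1.42.0, other normalizations, filters and pseudocounts, a clock gene score, GC content, the label number as a block, and leaving out each mouse were alternatives. For GC content, each library's trend (natural spline, 4 degrees of freedom, genes with a mean over 50 reads) was entered as an offset. Scripts were tested on simulated data.

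The members and gene lists were chosen with earlier results of these data known. Genes named were the members, the slow-fiber genes, fast myosin heavy chains, up to 5 called genes of each other list, and the 5 genes most alike and most opposed; Tnnt1, Adipoq, Bmal1 and Dbp were named for their values in single mice or groups. The fits without 3 mice, the length comparison and the relation to slow-fiber genes were added after the data were seen. The mice are separate animals. Grip strength, histology and activity were not analysed here.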

Additional observations from a re-analysis of the deposited data

How the results depend on the processing

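Under each of the 14 other settings of the LD versus ADV fit, and in each of the 30 fits that left out 1 mouse, 0 members were called, and the same held for the 5 other settings of the test of spread that gave a value and for the rank-sum test on TPM and on TMM-normalized CPM. Of 140 log2 fold changes under other settings 135 kept their direction; the others were Tnni2 (-0.0218), Tnnc2 (-0.0165) and Mylpf (-0.00405) with the GC content trend removed, and Tnnt3 (0.000615) and Atp2a1 (0.0025) with the clock gene score. Leaving out 1 mouse, Tnnt3 ran from -0.0462 to 0.0050 and Mylpf from -0.00138 to 0.052, with Mylpf below 0 without ADV mouse 34, and the FDR of Casq1 from 0.0808 to 0.225. The difference in spread (ADV minus LD) turned negative for Tnnt3 on log2(FPKM + 1) (-0.00211), with library size alone (-0.00361) and with DESeq2 size factors (-0.00284), and for Atp2a1 under the same settings (-0.0133, -0.0147 and -0.000666) and around the group mean (-0.00286); without LD 23, ADV 24 and ADV 34, a choice made after seeing the data, it was -0.0263 for Tnnt3, -0.0202 for Tnni2, -0.0298 for Tnnc2 and -0.0309 for Myl1. Leaving out 1 mouse, it ran from -0.0239 to 0.0127 for Tnnt3, -0.00266 to 0.0321 for Tnni2, -0.0209 to 0.0206 for Tnnc2, -0.0144 to 0.0199 for Myl1 and -0.0156 to 0.0184 for Atp2a1. The mean rank difference ran from -1.53 to 0.418 for Mylpf, and without LD mouse 29, LD mouse 32, ADV mouse 27 or ADV mouse 34 the unadjusted p of Casq1 was under 0.05. Of the 60 other sarcomere and calcium genes 5 were called, 8 by DESeq2, 0 with the clock gene score and 1 without the 3 mice. Over all tested genes edgeR called 1301, and DESeq2 1679, 629 with no filter, 604 with the GC content trend removed, 718 without the 3 mice, 0 with the clock gene score and 835 (without LD mouse 28) to 1542 without 1 mouse; 51.9% of the calls were higher in ADV, 62.4% with library size alone and 65.6% with limma on log2(FPKM + 1). The cause of these changes was not tested. The clock gene score differs between the groups, so that setting also removes part of the group difference.

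The label numbers that LD and ADV mice share (14 pairs) are not stated to mark a cage, litter or day, and same-number deviations correlated between -0.28 and 0.44, over 0.1 in 7 of 14 pairs, with 3 LD mice matching their own number best. With the number as a block over 28 libraries, edgeR called 0 members and 494 genes, and 616 genes without the block. A blocked test of spread has no value here, since with 2 libraries a number their deviations are equal and opposite.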
